A study of Mus musculus with 3 samples.

Results

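The 9 genes described here encode the cytotoxic granule and the secreted effectors of killer lymphocytes: Gzma, Gzmb, Gzmc, Prf1, Nkg7, Ctsw, Ccl5, Xcl1 and Ifng. They were taken as a named list, and 9 of 9 were present in all 3 deposited expression tables, which share 15904 gene symbols. The tables come from 1 sequenced pool of cells from 8 mouse samples, told apart by hashtags, which are antibodies with a DNA barcode. The method, CITE-seq, reads RNA and antibody tags from the same single cell. The brain samples were 2 hashed naive CCR2-/- samples and 2 hashed naive CCR2+/- samples, each 1 brain hemisphere. The 4 blood samples were metastasis-bearing Hom, metastasis-bearing Het, naive Hom and naive Het, 1 of each. All mice were female, 2 to 3 months old and on a C57Bl/6 background. The metastasis-bearing mice had been given E0771 cells, a mouse mammary tumour line, into the carotid artery about 2 weeks earlier. Which gene is heterozygous (Het) or homozygous (Hom) in the blood samples is not given, and the series as a whole used mice heterozygous or null for CCR2 or Cx3cr1. Nothing in the labels says whether the hashtags of 1 brain genotype came from separate animals, so p-values measure the spread between these samples, which may be technical.

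Natural killer (NK) cells and CD8 T cells kill by releasing granules toward a target cell. Perforin (Prf1) opens the target's membrane, and granzymes, which are serine proteases, enter and trigger death. Nkg7 is a granule membrane protein, and Ctsw is a protease of cytotoxic lymphocytes. Ccl5 and Xcl1 are chemokines that draw in T cells and type 1 dendritic cells, and Ifng is interferon gamma, which activates macrophages and antigen presentation.

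The sequences upstream of 4 members are shown because their levels separated brain from blood cells or from one another. Each line is the 250 bases before a start in the RefSeq promoter table on GRCm38.p6, the assembly that mm10 in the submitters' processing notes also names. Capitals mark the RUNX motif TGTGGT on either strand. Gzma lay at chr13:113100982-113101231, Gzmb at chr14:56262335-56262584, Gzmc at chr14:56234658-56234907 and Xcl1 at chr1:164935523-164935772, all on the minus strand. The Gzmc window lies inside the RefSeq span of that gene (chr14:56231397-56241647), so it precedes an internal start, while the others adjoin the end of theirs.
Gzma: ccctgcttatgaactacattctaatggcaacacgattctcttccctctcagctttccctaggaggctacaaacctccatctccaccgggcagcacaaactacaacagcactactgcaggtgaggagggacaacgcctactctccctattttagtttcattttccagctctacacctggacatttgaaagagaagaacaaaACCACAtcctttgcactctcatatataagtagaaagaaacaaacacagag
Gzmb: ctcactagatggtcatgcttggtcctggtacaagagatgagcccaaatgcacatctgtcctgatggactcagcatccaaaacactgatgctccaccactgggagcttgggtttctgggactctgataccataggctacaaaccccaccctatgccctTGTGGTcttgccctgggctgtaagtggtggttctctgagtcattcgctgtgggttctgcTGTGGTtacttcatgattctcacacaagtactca
Gzmc: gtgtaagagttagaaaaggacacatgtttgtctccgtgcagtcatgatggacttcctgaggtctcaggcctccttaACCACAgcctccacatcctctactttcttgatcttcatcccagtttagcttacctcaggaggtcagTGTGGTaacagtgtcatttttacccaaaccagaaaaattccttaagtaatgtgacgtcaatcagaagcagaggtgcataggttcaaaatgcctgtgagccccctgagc
Xcl1: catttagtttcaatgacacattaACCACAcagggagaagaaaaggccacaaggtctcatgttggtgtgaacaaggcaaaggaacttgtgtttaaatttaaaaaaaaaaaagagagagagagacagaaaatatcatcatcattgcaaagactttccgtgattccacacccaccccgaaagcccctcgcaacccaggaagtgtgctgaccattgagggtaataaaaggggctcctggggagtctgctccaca
The RUNX motif occurred in the same window of 14.0% of 32851 RefSeq starts. It occurred in all of the 7 members with an entry (Ccl5 and Ctsw had none) except Ifng. A T-box motif (GGTGTGA, 3.33% of starts) occurred upstream of Nkg7 and Xcl1, an AP-1 motif (TGANTCA, 6.75%) upstream of Gzmb, and an ETS motif (AGGAAGT, 7.69%) upstream of Gzmc, Prf1 and Xcl1. Each was searched on both strands, and none of these matches overlapped a RUNX match. The upstream windows of Gzmb and Gzmc, neighbours on chromosome 14, were 47.8% identical over an alignment of 274 positions, against 47.3% for Gzma and Gzmb, which lie on different chromosomes. A match is a description of the letters.

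A cell was used, and is called clear, when no other table held its barcode and its own table's hashtags made up a share of 0.5 or more of its hashtag reads. This left 3350 brain, 3694 naive blood and 4019 metastasis-bearing blood cells. Of 16328 deposited cells, which held 13757 different barcodes, 2401 barcodes stood in several tables. Samples held 4420428 to 9267629 corrected counts. Ccr2 was checked first in the brain, since the genotypes name it. In cluster 4 it stood at 0.13 and 0.18 corrected counts per 10000 in CCR2-/- brains, against 1.42 and 1.28 in CCR2+/- brains, and it fell by 2.96 on the log2 scale (limma, adjusted p = 0.0213). RFP, a transcript listed among the genes, stood at 6.35 and 5.90 per 10000 in CCR2-/- cluster 4 and at 3.66 and 3.24 in CCR2+/- cluster 4, and blood lymphoid clusters held 0 or 1 count of it per sample. In all clear blood cells Ccr2 stood at 4.60 in Hom and 3.33 in Het metastasis-bearing blood and at 1.62 in Hom and 1.60 in Het naive blood. Cx3cr1 stood at 0.521 in Hom and 0.863 in Het metastasis-bearing blood and at 0.521 in Hom and 0.905 in Het naive blood. Brain and blood may come from different mouse lines, and then line and tissue cannot be told apart.

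The effector genes were highest in lymphoid clusters: in all 27 pairs of gene and table, the cluster with the highest level was among brain cluster 4, naive blood cluster 2 and metastasis-bearing blood clusters 3 and 7. For Gzmc in naive blood this rests on 1 count in cluster 2, beside 2 counts in the larger cluster 0, so it has no order there. Clusters were defined from these genes too, so these are levels with no test. In brain cluster 4 the pooled levels per 10000 were 63 for Ccl5, 27 for Gzma, 18 for Nkg7, 14 for Xcl1, 5.3 for Gzmb, 5.0 for Ctsw, 3.1 for Prf1, 2.0 for Gzmc and 1.9 for Ifng. Elsewhere in the brain, clusters 0 and 1, where the microglial gene Tmem119 had a count in 83.8% and 99.4% of cells, had Gzma at 0.14 and 0.053 per 10000, with a count in 3.0% and 4.1% of cells. Whether free RNA, doublets or low expression gave these counts was not tested, and the shares are given for comparison only. The metastasis-bearing blood split into a T cluster and an NK cluster. Cluster 7 had a Gzma count in 98% of 59 cells and CD8 counts in none, while cluster 3 had Gzma in 3.0% of 269 cells and Cd8a in 46.5%. The plot of levels across clusters shows this arrangement.

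**Figure D1:**
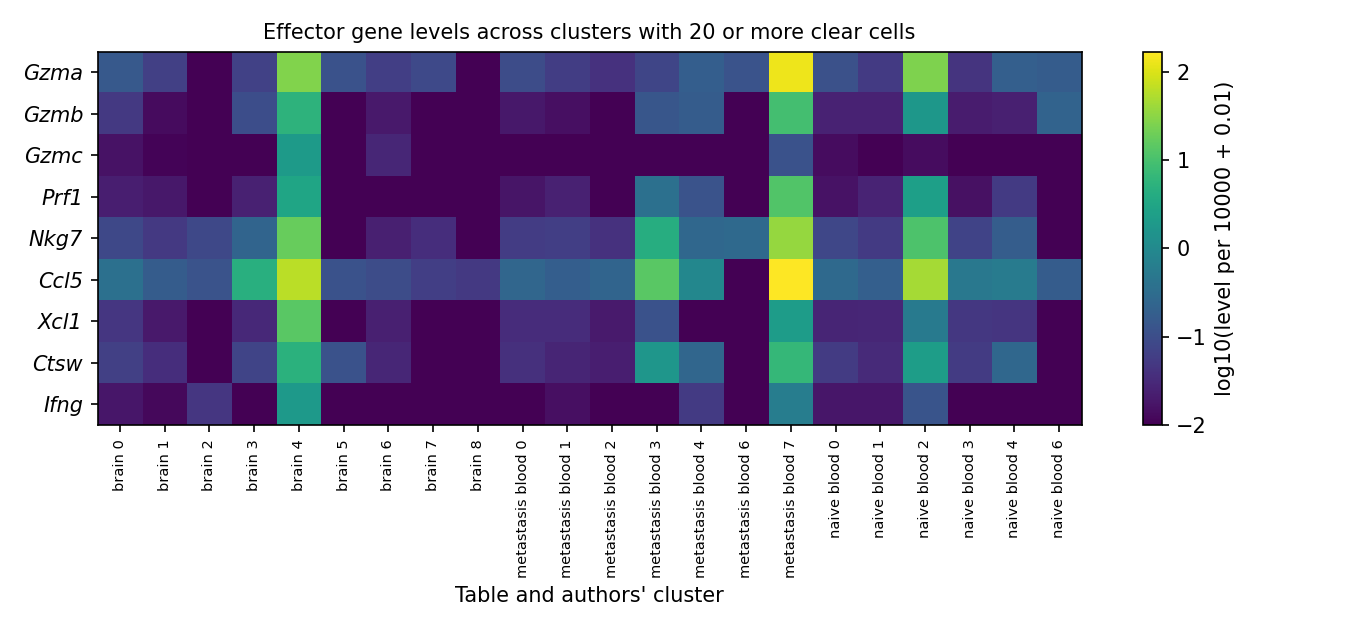
Levels of the 9 effector genes in every cluster of the 3 tables with at least 20 clear cells, as log10 of corrected counts per 10000 plus 0.01. Within each table the highest level lies in a lymphoid cluster (brain 4, metastasis-bearing blood 3 or 7, naive blood 2), except that Gzmc in naive blood, with 3 counts in all, has no order.

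Brain cluster 4 was a mixture, and 37 of its cells carried no lymphocyte marker of the rules used here. Of its 248 clear cells, 71 carried a count of an NK marker and none of CD3, and 52 carried CD3 and CD8 counts. Of the other cells with CD3, 54 carried gamma delta T cell counts and 34 did not. NK markers were not used to sort cells with CD3: 4 or more stood in 12 of those 54 and in 8 of those 34. The remaining 37 had neither an NK marker nor CD3, and 13 of those held over 5% haemoglobin counts. These cells are called NK-marker and CD8-marker cells by those rules, which were applied alike to blood. NK-marker cells numbered 16 and 21 in CCR2-/- brains and 24 and 10 in CCR2+/- brains. In blood they numbered 21 in metastasis-bearing Hom, 33 in metastasis-bearing Het, 54 in naive Hom and 9 in naive Het. The authors' antibody gates went partly against the RNA rule in the brain: of the 71 NK-marker cells, 8 lay in the NK gate, 31 in the T cell gate and 32 in none. In blood, 39 of 54 metastasis-bearing and 39 of 63 naive NK-marker cells lay in an NK or NK1.1-positive gate.

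Brain NK-marker cells carried more Xcl1 and more Ifng than blood NK-marker cells, and all but 3 Gzmc counts of NK-marker cells were in the brain. Xcl1 stood at 51.7 and 17.2 per 10000 in CCR2-/- brains and 23.9 and 13.9 in CCR2+/- brains, against 1.98 and 1.59 in metastasis-bearing Hom and Het blood and 2.72 and 1.66 in naive Hom and Het blood. All 4 brain samples lay above all 4 blood samples, by 3.75 on the log2 scale of the means. Ifng stood at 3.06 and 1.99 in CCR2-/- brains and 1.29 and 5.05 in CCR2+/- brains, against 0.595 to 0.832 in blood, again without overlap and 2.07 apart on the log2 scale. Gzmc, a granzyme of activated killer cells in the mouse, stood at 0.698 and 11.1 in CCR2-/- brains and at 5.17 and 0.306 in CCR2+/- brains. Blood NK-marker cells had 3 Gzmc counts in all, in 1 metastasis-bearing Het cell, which gave that sample a level of 0.198. The 0.306 of CCR2+/- sample 2 was 2 counts in 1 cell. In CCR2-/- sample 2, 116 of 161 Gzmc counts lay in 1 cell. Tables were normalised separately, so these levels carry no test; no p is given for brain against blood anywhere. At a 2-fold difference of means with no overlap, 3 of 9 members were higher in brain and 0 lower, against 2.54% higher and 2.93% lower of 6210 genes. The 3 were Xcl1, Ifng and, on the few cells above, Gzmc. With all deposited cells, including barcodes shared between tables, 0 members were higher, and Xcl1 differed by 2.07 and Ifng by 1.37 on the log2 scale. With the mean of the deposited ln values, or after thinning, 1 member was higher. The shares of all genes in these 3 settings are not given.

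Gzma, Gzmb, Prf1, Nkg7, Ctsw and Ccl5 did not share that pattern. Gzma stood at 58.1 and 149 per 10000 in CCR2-/- brains and 37.3 and 128 in CCR2+/- brains, against 129 and 142 in metastasis-bearing Hom and Het blood and 172 and 148 in naive Hom and Het blood. The brain samples overlapped the blood ones, but fewer brain cells carried the gene: a Gzma count stood in 50%, 71.4%, 45.8% and 70% of brain NK-marker cells in that order, against 97% to 100% of blood ones. Fewer than 4 of the 7 NK markers stood in 12 of the 71 brain cells, in 1 of 54 metastasis-bearing and in 0 of 63 naive blood cells. Among cells with 4 or more, the share with Gzma was 69.5% of 59 brain cells, 98.1% of 53 metastasis-bearing and 100% of 63 naive blood cells. After each cell was thinned to 1000 corrected counts the share was 54.9% of 71 brain cells, against 98.1% of 54 metastasis-bearing and 100% of 63 naive blood cells. Averaged over the deposited ln values per cell, Gzma was lower in brain, by -2.41 on the log2 scale, and was called. Ccl5 was 80.1 to 161.7 in brain and 162.3 to 222 in blood, -0.61 apart on the log2 scale, and the highest brain sample all but met the lowest blood sample. Gzmb was 7.57 to 18.6 in brain and 6.86 to 11.1 in blood, Prf1 4.55 to 15.6 and 10.2 to 14.5, Nkg7 22.6 to 42.9 and 36.4 to 50.5, and Ctsw 6.25 to 8.12 and 6.01 to 7.64, and these 4 overlapped. In the cells deposited in both the brain table and a blood table (926 naive and 970 metastasis-bearing), the members other than Gzmc and Ifng differed by -0.23 to -0.11 on the log2 scale, brain table over blood table. Gzmc differed by 0.37 in the naive set (32 and 17 counts) and by -0.55 in the metastasis-bearing set (1 count each). Ifng differed by -0.07 (34 and 25 counts) and 0.14 (20 and 12 counts) in that order.

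**Figure D2:**
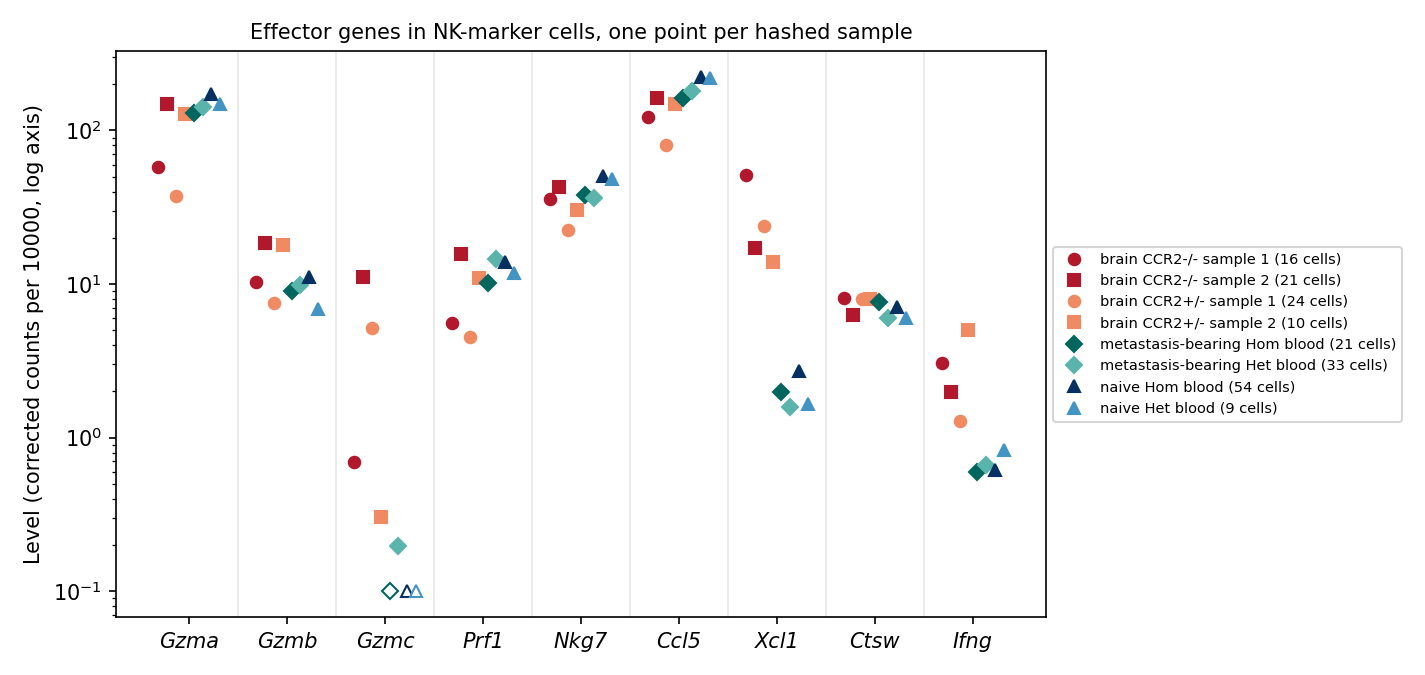
Level of each effector gene in NK-marker cells, 1 point per hashed sample, with brain samples left of blood samples; open symbols at the bottom are samples below 0.1. Xcl1 lies at 13.9 to 51.7 in brain and 1.59 to 2.72 in blood, while Gzma, Prf1 and Nkg7 overlap.

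Within brain NK-marker cells, 41 had a Gzma count and 30 had none, and they differed in the other effectors. All 41 cells with Gzma carried 4 or more NK markers, while 12 of the 30 without it carried fewer. Splitting by Gzma uses the measured gene, so these are descriptions. Cells with Gzma had more Ccl5 (191 against 29.9 per 10000), more Prf1 (14.0 against 2.00) and more Gzmb (18.8 against 4.77), while cells without it had more Xcl1 (47.7, against 12.1 in cells with Gzma). In each of the 4 samples Ccl5, Nkg7 and Prf1 were higher, and Xcl1 lower, in the cells with Gzma. Markers moved with the split: Eomes, a regulator of NK cell maturation, stood at 2.58 against 0.0974, and the NK receptor Klra8 at 9.59 against 0.0974. The integrin Itga2 stood at 1.77 against 0.341, and the integrin Itga1 and the chemokine receptor Cxcr6 at 0.708 against 2.24 and 0.814 against 2.92. Eomes and Klra8 are NK markers of the fixed list by which these cells were picked, so their levels are tied to that choice. Itga1, Itga2 and Cxcr6 were chosen after these data had been seen. Itga1 and Cxcr6 were higher in cells without Gzma in 2 and 4 of the 4 samples.

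**Figure D3:**
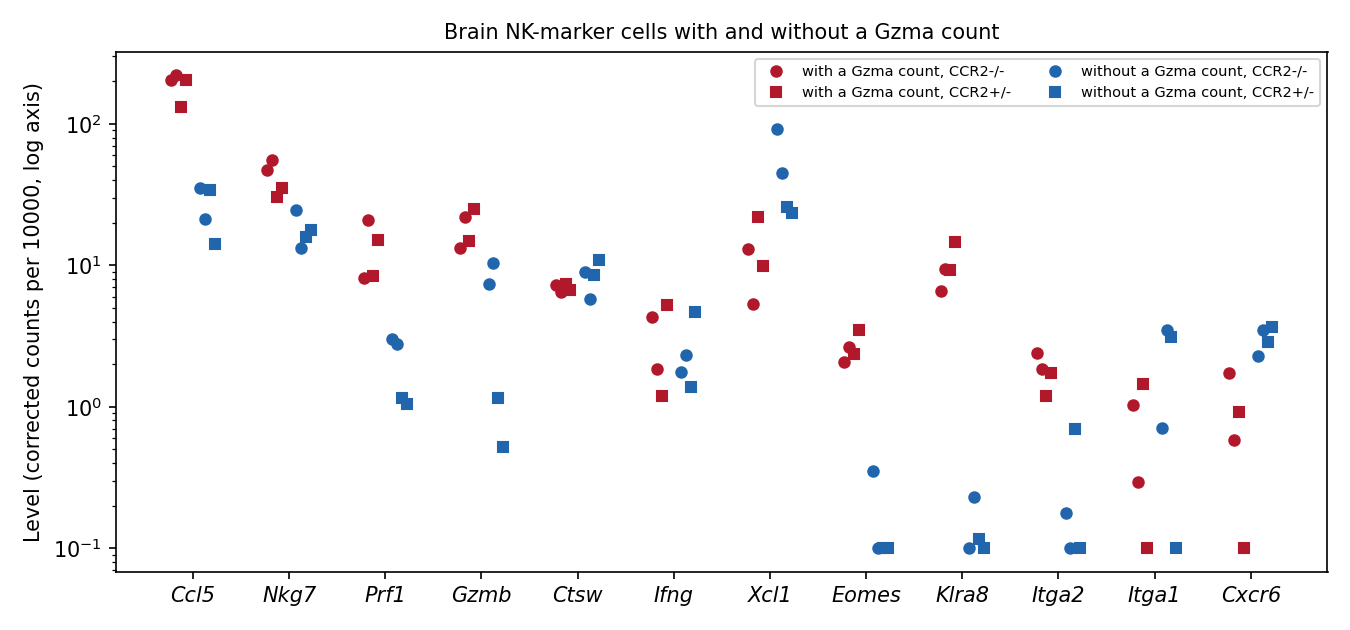
Levels in brain NK-marker cells with and without a Gzma count, 1 point per hashed sample; values under 0.1 are drawn at 0.1. Ccl5, Prf1 and Eomes are higher in every sample in cells with Gzma, and Xcl1 is higher in every sample in cells without it.

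Gzmc rested on few cells. Of all Gzmc counts in brain cluster 4, 83.1% lay in 5 cells. In 8 cells with 5 or more Gzmc counts, from all 4 samples, Gzmb had 2 to 78 counts and Xcl1 8 to 38 counts, and 5 of the 8 had no Gzma count. Of these 8, 4 were NK-marker, 2 gamma delta and 2 other CD3 cells, and none was a CD8-marker cell.

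In CD8-marker cells most members were higher in brain than in blood: Ccl5, Nkg7, Ctsw, Xcl1 and Ifng, and Gzmb on few counts. Those in brain numbered 20 and 13 in CCR2-/- and 16 and 3 in CCR2+/-, and 155 and 201 in metastasis-bearing and naive blood. Ccl5 stood at 74.3 and 71.0 per 10000 in CCR2-/- brains and 74.0 and 33.7 in CCR2+/- brains, against 23.9 and 13.8 in metastasis-bearing Hom and Het blood and 22.4 and 11.2 in naive Hom and Het blood. Nkg7 was 12.8 to 22.8 in brain and 5.51 to 7.71 in blood, and Ctsw 4.02 to 5.58 and 1.95 to 2.38. Ifng was 1.07 to 4.18 in brain and 0 to 0.0355 in blood, and Xcl1 3.26 to 17.0 and 0.0285 to 0.14. Gzmb reached 7.47 in 1 CCR2-/- sample and was 0 to 0.628 in the other 3 brain samples, against 0.0233 to 0.426 in blood. Of the 65 Gzmb counts in that sample 59 lay in 1 cell, without which its level was 0.755, and in the other CCR2-/- sample 6 of 9 lay in 1 cell, without which it was 0.221. Only these 2 of 52 brain CD8-marker cells had 5 or more. Likewise 118 of its 148 Xcl1 counts lay in 1 cell, without which its level was 3.77. With the 3-cell sample left out, 6 of 8 members with enough counts were higher in brain and 0 lower, against 4.76% and 9.14% of 7976 genes. Gzmb, at 0 in the sample left out, was 1 of the 6. Prf1 was not called: it averaged 0.81 in the same brain samples and 0.51 in blood, 0.66 apart on the log2 scale. With all deposited cells 2 members were higher and 1 lower, and the share of all genes in that setting is not given. Over all cells of the lymphoid clusters, whatever their type, 5 of 9 members (Gzmb, Gzmc, Xcl1, Ctsw and Ifng) were higher and 0 lower, against 5.5% and 7.4% of 9903 genes. NK-marker cells made up 25% to 32.3% of brain cluster 4 and 6.29% to 19.2% of the blood lymphoid clusters. In this pooled comparison cell mix and level per cell cannot be told apart. The Gzma level was 0 to 0.534 in brain CD8-marker cells, and 0.0571 to 4.72 in blood ones.

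The naive T cell gene Lef1 moved with this difference, at 0 to 0.77 per 10000 in brain CD8-marker cells and at 5.31 to 5.76 in blood ones. Early response genes moved with it as well, in both cell sets: in NK-marker cells Junb averaged 32.7 in brain and 3.27 in blood, Fos 5.08 and 0.90, and Nr4a1 3.71 and 0.28. Brains were enzymatically digested and enriched on a density gradient, and blood was lysed of red cells, so tissue and preparation cannot be told apart, and the part of preparation in these levels was not tested.

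**Figure D4:**
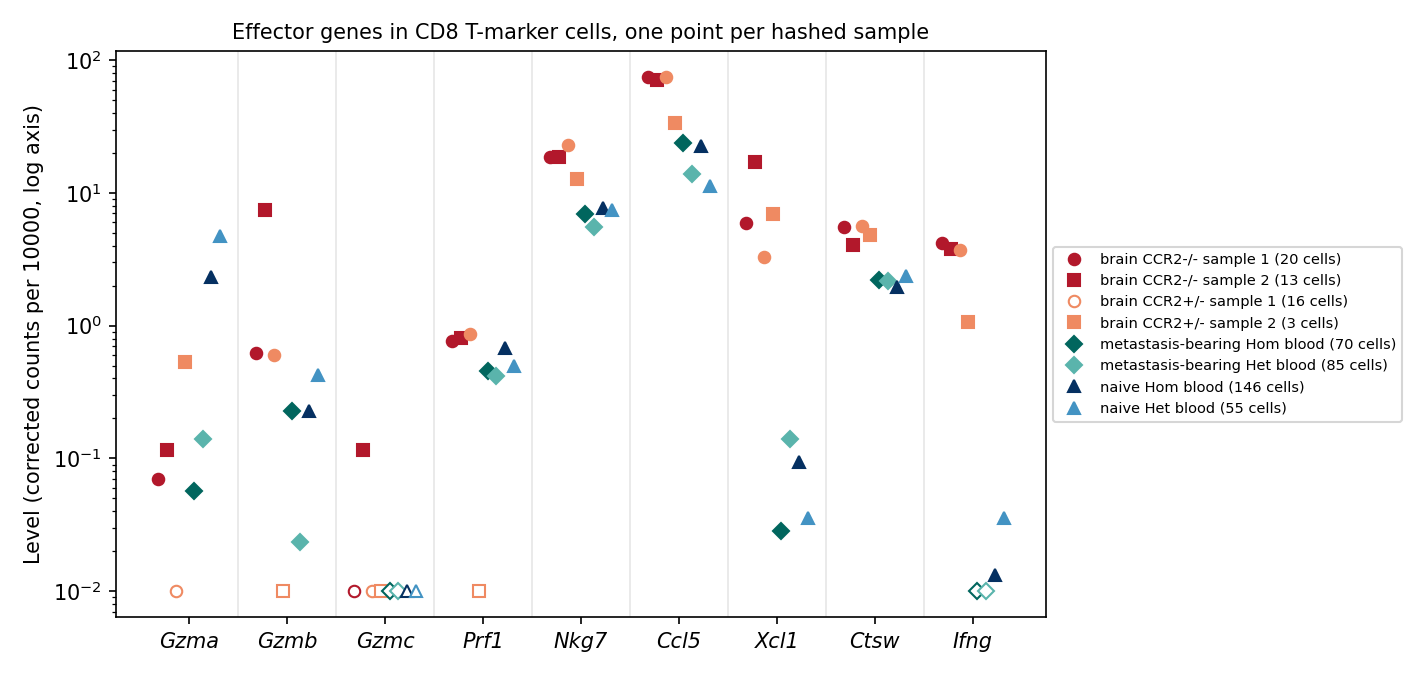
Level of each effector gene in CD8-marker cells, 1 point per hashed sample, brain samples left of blood samples; open symbols at the bottom are samples below 0.01. Ccl5 lies at 33.7 to 74.3 in brain and 11.2 to 23.9 in blood.

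Of 43 other genes of the same pathway, 38 were in all 3 tables. In NK-marker cells 28 could be compared, and 5 were higher and 3 lower in brain by the same rule, against 2.54% and 2.93% of all genes. The highest of these in level were Ccl4 (44.5 in brain and 4.23 in blood), Srgn (12.8 and 5.94), the granule proteoglycan, and Ccl3 (12.2 and 1.74). Il18r1, the interleukin 18 receptor, was 1.20 and 2.84. The list's median difference was -0.13 on the log2 scale, against -0.14 over all genes. In CD8-marker cells 13 of 29 were higher and 0 lower, against 4.76% and 9.14% of all genes, including Srgn (9.02 and 3.24), Ccl4 (8.53 and 0.42) and Id2 (6.02 and 1.25), a regulator of effector differentiation, and the median was 1.48 against -0.11 over all genes.

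Gamma delta cells of the brain carried Xcl1 at 10.0 and 18.3 per 10000 in CCR2-/- and 10.4 and 12.6 in CCR2+/- brains, against 0.368 to 2.69 in blood. In CCR2+/- sample 2, 36 of the 44 Xcl1 counts lay in 1 cell, without which the level was 2.97. They numbered 13 and 16 in CCR2-/- and 20 and 5 in CCR2+/- brains, 22 and 11 in metastasis-bearing Hom and Het blood, and 17 and 6 in naive Hom and Het blood. Their Gzma level was 0 to 3.03 in brain, 1.38 and 0.716 in metastasis-bearing Hom and Het blood, and 28.7 and 40.4 in naive Hom and Het blood. In CCR2-/- sample 1, 24 of 25 counts lay in 1 cell, and in CCR2+/- sample 1, 39 of 40. The naive counts lay in 4 Hom cells and 1 Het cell, and 5 of the 23 naive cells carried 4 or more NK markers.

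No effector gene passed the test between brain genotypes, and 8 of 9 had a positive estimate, with a median of 0.42 on the log2 scale against 0.01 over all genes. Without CCR2-/- sample 2 there were 5 of 9 and the median was 0.08, without CCR2+/- sample 1 there were 6 of 9 and it was 0.13, without CCR2-/- sample 1 it was 0.68, and without the 37 unmarked cells 0.22. In cluster 4, Ccl5 stood at 68.3 and 80.1 in CCR2-/- brains and at 48.7 and 55.1 in CCR2+/- brains, and Nkg7 at 18.9 and 22.3 in CCR2-/- brains and 14.1 and 13.7 in CCR2+/- brains. Neither overlapped, nor did Xcl1 (17.3 and 14.5 in CCR2-/-, 11.3 and 13.1 in CCR2+/-), while the other members did. With 2 samples a genotype, samples often separate by chance, and the share of all genes that did so was not counted. The share of all genes with a positive estimate is not given either. Neither the separation nor the 8 of 9 positive estimates is therefore a result about these members. The Ccl5 and Nkg7 differences of 0.51 ± 0.17 and 0.56 ± 0.17 on the log2 scale (SE, n = 2 each) had an adjusted p of 0.989 in limma. Without the 37 cells that lacked NK markers and CD3 they were 0.30 and 0.34. Those cells made up 10.9% and 13.4% of CCR2-/- cluster 4 and 11.6% and 35.5% of CCR2+/- cluster 4. Gzma was 18.5 and 48.5 in CCR2-/- brains and 11.3 and 41.1 in CCR2+/- brains, so samples of 1 genotype differed more than the genotypes. The 95% interval of its difference, -0.66 to 1.61 on the log2 scale, holds a change of 2-fold or more, as do those of Gzmb (-0.54 to 1.07), Gzmc (-1.47 to 2.54) and Prf1 (-0.52 to 1.36). Those of Xcl1 (-0.02 to 0.77), Ifng (-0.37 to 0.79) and Ctsw (-0.45 to 0.43) do not. Without the mean-variance trend, those of Xcl1 (-0.41 to 1.16) and Ifng (-0.69 to 1.11) do. Those of Nkg7 (-0.21 to 1.32) and Ccl5 (-0.26 to 1.29) then hold both 0 and a 2-fold change. With the trend, 0 of 9 members were called, at a background of 0% higher and 0.0141% lower among 7115 genes. Of these genes, 285 had an unadjusted limma p under 0.05. Of 32 pathway genes tested, 0 were called, 15 higher and 17 lower.

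**Figure D5:**
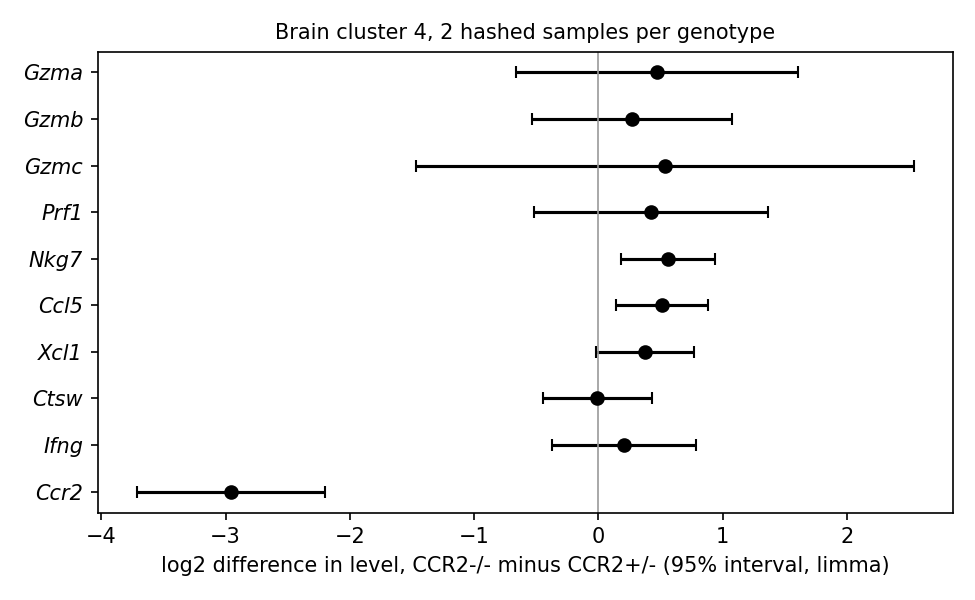
Log2 difference in level between CCR2-/- and CCR2+/- cluster 4 for the 9 effector genes and Ccr2, with 95% intervals from limma. The interval of Ccr2 lies wholly below 0; those of Nkg7 and Ccl5 lie above 0 but did not pass adjustment over all genes.

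In the other brain clusters with enough cells, no member was called either, at backgrounds of 0% higher and 0.0607% lower (cluster 0), 0.271% and 0.261% (cluster 1), 0.201% and 0.043% (cluster 3) and 0.105% and 0.0211% (cluster 6). Ccl5 in cluster 3, where the border macrophage gene Mrc1 had a count in 56.5% of cells, was 24.5 and 0.559 in CCR2-/- brains and 1.19 and 0.159 in CCR2+/- brains. Of its counts, 96.0% lay in 7 of 191 cells. Its log2 difference was 3.00 with all samples (limma, adjusted p = 0.50), and 0.31 without CCR2-/- sample 1. It was called when CCR2-/- sample 2, CCR2+/- sample 1 or CCR2+/- sample 2 was left out, with log2 differences of 5.70, 4.35 and 1.65; there the sample left alone in its genotype is assumed to vary like the others.

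In blood each group was 1 sample and the naive and metastasis-bearing tables were normalised separately, so no test was made, and intervals cover counting error only. In naive NK-marker cells, Hom over Het was 0.21 for Gzma on the log2 scale (95% interval 0.10 to 0.33), 0.65 for Gzmb (0.17 to 1.26) and 0.02 for Ccl5 (-0.07 to 0.12), with 9 Het cells. In metastasis-bearing NK-marker cells the same ratios were -0.14, -0.13 and -0.15, and Prf1 stood at 10.2 in Hom and 14.5 in Het. No member passed 2-fold in either. Of all genes, 2.89% were higher and 3.69% lower by that rule in metastasis-bearing blood, and 4.03% and 6.28% in naive blood.

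In CD8-marker cells Ccl5 stood at 23.9 in Hom and 13.8 in Het metastasis-bearing blood and at 22.4 in Hom and 11.2 in Het naive blood, ratios of 0.79 (0.64 to 0.95) and 1.00 (0.82 to 1.18) on the log2 scale. In metastasis-bearing Hom, 364 of the 838 counts lay in 1 cell. Without the cell of most Ccl5 counts in each sample, the levels were 13.7 in Hom and 11.5 in Het metastasis-bearing blood and 18.8 in Hom and 6.00 in Het naive blood. A Ccl5 count stood in 32.9% of Hom and 35.3% of Het cells in metastasis-bearing blood, and in 28.1% and 25.5% in naive blood. Gzma was 2.34 in naive Hom and 4.72 in naive Het, past 2-fold, as 2.2% of genes were upward and 2.46% downward. In metastasis-bearing Hom and Het it was 0.0571 and 0.14, and there 0 of 4 members with enough counts passed 2-fold, against 1.95% of genes higher and 2.32% lower. Of the naive counts, 168 of 175 in Hom lay in 3 cells and 131 of 133 in Het in 1 cell, and without them the levels were 0.0955 and 0.0723. Between metastasis-bearing and naive blood, Hom NK-marker cells had Gzma at 129 and 172, Ccl5 at 162 and 222 and Nkg7 at 38.1 and 50.5, differences of -0.41, -0.45 and -0.40 on the log2 scale. Het NK-marker cells gave -0.06, -0.28 and -0.41. No member passed 2-fold in NK-marker cells; 2.77% and 4.06% of genes did in Hom and 5.75% and 3.97% in Het. In CD8-marker cells Gzma alone did in both genotypes, on those 4 naive cells (2.86% and 1.64% of genes in Hom, 2.78% and 1.79% in Het).

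The genes most like a member in pattern were found over 22 clusters of the 3 tables among 12070 genes, by the correlation of log2(level + 0.1). The clusters of a table share their library. Gzma was closest to Ncr1, Klra4 and Klre1, NK receptors (r = 0.99, 0.98 and 0.98), and Gzmb to Tbx21, Klre1 and Ncr1 (0.97 each). Ccl5 was closest to Klrd1, Cdca7l and Klrk1 (0.98, 0.96 and 0.96), Xcl1 to Trdv4, Styk1 and Cd160 (0.97, 0.97 and 0.94), and Nkg7 to Il2rb, Cst7 and Apol7e (0.98, 0.98 and 0.98).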

How the data were processed

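The authors deposited 3 tables of natural log (ln) values, which are the ln of 1 plus a depth-corrected count made separately per table, as the values themselves show: back-transformed values were whole to within 2.18e-11. The submitters' processing notes name Cell Ranger 3.1 and mm10; Seurat versions and cell filters are not given in the sources used here. The deposited other columns gave hashtag totals, cluster numbers and antibody gates; clusters and hashtag groups are the authors'. Levels are corrected counts per 10000 corrected counts of the same cells; doublets were not called, and a barcode in several tables was left out. Brain genotypes were compared with limma 3.58.1 (R 4.3.3) on log2 of counts summed per sample with a pseudocount of 1, genes of at least 20 counts, a mean-variance trend and Benjamini-Hochberg adjustment at 0.05. Clusters needed at least 20 clear cells in every sample.

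Members and lists were chosen with earlier results of these data known. The plan spoke of NK-like and CD8 T-like clusters, but 1 naive blood cluster held both, so marker rules on cells replaced them. The CD8 and gamma delta rules, the choice of lymphoid clusters, the minimum of 5 cells, the rule of 2-fold without overlap, the minimum of 20 counts in blood, the early response genes, Itga1, Itga2, Cxcr6, RFP and the motifs were set after the data had been seen. All members were described, pathway genes were counted with up to 6 named by level, and the 3 most alike genes were named for 5 members. Intervals are 95%. Those of blood ratios cover counting error only, and those of brain genotype differences come from the limma fit, from the spread between hashed samples.

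On simulated sums for cluster 4, the fit recovered 99% of 8-fold and 10% of 2-fold changed genes. It also called 11 unchanged genes among 7072 tested, more than the threshold implies. The changed genes were neither rare nor the most abundant, and every gene was given the same spread. These rates therefore need not hold for a given member. An earlier simulation, which also changed the most abundant genes and so moved the totals, was replaced. A result for 1 marker gene is not reported here. Levels without the cell of most counts, and the Gzma share at 4 or more NK markers, were added after seeing the data.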

Additional observations from a re-analysis of the deposited data

Results flagged for a closer look

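With 1 sample a group, no difference between the following effects was tested; they were picked out because a contrast ran one way in 1 blood group and the other way in another. All values are log2 ratios. For Hom over Het in NK-marker cells, metastasis-bearing and naive blood gave -0.14 and 0.21 for Gzma, -0.13 and 0.65 for Gzmb, -0.50 and 0.21 for Prf1, and -0.15 and 0.02 for Ccl5. In CD8-marker cells Ctsw gave 0.02 in metastasis-bearing blood and -0.30 in naive blood. For metastasis-bearing over naive blood in NK-marker cells, Hom and Het gave -0.29 and 0.50 for Gzmb, -0.44 and 0.28 for Prf1, and 0.12 and -0.04 for Ctsw. In CD8-marker cells Ctsw gave 0.18 in Hom and -0.14 in Het. The naive Het sample held 9 NK-marker cells.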

How the results depend on the processing

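No paired analysis was possible because the labels give no replicate numbers that pair the hashed samples. No member was called in cluster 4 under any alternative. With all deposited cells, brain over blood called 0 members higher in NK-marker cells and 2 higher and 1 lower in CD8-marker cells. With the mean of the ln values 1 was higher and 1 lower in NK-marker cells, and with cells thinned to 1000 counts 1 was higher; the cause was not tested. Members past 2-fold in blood numbered, with all deposited cells, 2 (naive NK, Hom over Het), 1 (metastasis-bearing CD8, Hom over Het), 1 (Hom NK, metastasis-bearing over naive), 2 (Het NK) and 2 (Het CD8). After thinning they numbered 1 (naive NK), 2 (metastasis-bearing CD8) and 2 (Het CD8), and with at least 4 of 7 NK markers, a rule added after seeing the data, 1 (metastasis-bearing NK). The hashtag share of 0.8 and a pseudocount of 0.5 moved none of these counts by over 1.5 times. The shares of all genes called under these alternatives are not given. The counts therefore show only how far the calls depend on the setting, and are no result about the members.

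Genes called in cluster 4 were 0 without the filter, without the trend, with all deposited cells, in NK-marker cells, in CD3 cells and after thinning, and 4 at a hashtag share of 0.8. With all deposited cells clusters 0 and 3 had 1 and 27. Leaving out a sample gave 0 to 4 in cluster 4, 12 to 30 in cluster 0, 29 to 121 in cluster 1, 66 to 237 in cluster 3 and 0 to 185 in cluster 6; members called were 0 to 1 in cluster 3 and 0 in the others.

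CCR2-/- minus CCR2+/- turned sign for members that were not called. In cluster 4, leaving out CCR2-/- sample 2 gave -0.22 (Gzma), -0.27 (Gzmb), -1.12 (Gzmc), -0.27 (Prf1) and 0.08 (Ctsw); CCR2+/- sample 1 gave -0.46 (Gzma), -0.25 (Gzmb), -0.14 (Prf1) and 0.13 (Ctsw); CCR2+/- sample 2 gave -0.71 (Gzmc), and CCR2-/- sample 1 gave -0.12 (Ifng). Thinning gave -0.0030 (Gzmb), -0.74 (Gzmc) and -0.27 (Ifng). CD3 cells gave -0.61 (Gzmc) and -0.45 (Xcl1), NK-marker cells -0.061 (Ifng), cells without the 37 unmarked ones -0.0070 (Ifng), and all deposited cells 0.15 (Ctsw). In cluster 0, all deposited cells gave -0.090 (Gzma), -0.086 (Gzmb), -0.098 (Nkg7) and -0.68 (Xcl1); leaving out CCR2-/- sample 2 gave -0.40 (Gzma), -0.11 (Nkg7) and 0.07 (Ctsw), CCR2+/- sample 1 -0.06 (Nkg7), and CCR2+/- sample 2 -0.47 (Gzmb), -1.11 (Xcl1) and 0.23 (Ctsw). In cluster 1, leaving out CCR2-/- sample 1 gave 0.05 (Gzma), 0.05 (Ccl5) and 0.43 (Ctsw), and CCR2+/- sample 2 gave 0.44 (Gzma) and 0.31 (Ccl5). In cluster 3, all deposited cells gave -0.37 (Nkg7). Over the samples left out in turn, the other end of each range was 1.40 (Gzma), 0.81 (Gzmb), 2.19 (Gzmc), 1.11 (Prf1), -0.15 (Ctsw) and 0.53 (Ifng) in cluster 4. In cluster 0 it was 0.87 (Gzma), 2.47 (Gzmb), 0.67 (Nkg7), 1.87 (Xcl1) and -0.76 (Ctsw), and in cluster 1 -0.57 (Gzma), -0.42 (Ccl5) and -0.64 (Ctsw). The causes were not tested. The number of brain cells of a type, down to 3 per sample, limits these comparisons.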
